A study of Homo sapiens with 2 samples.

Results

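The hexosamine biosynthesis pathway and the O-GlcNAc cycle are described here through 7 genes, taken from the 40205 genes of the expression table by an exact match of their symbols: GFPT1, GFPT2, GNPNAT1, PGM3, UAP1, OGT and MGEA5. All 7 were found. RNA came from RKO, an established human colorectal carcinoma line, transfected either with the control siRNA siNC or with sihnRNPU, an siRNA against hnRNPU, a nuclear RNA- and DNA-binding protein. With 1 library in each group, differences between groups could not be tested or checked in replicates, and every comparison holds for this pair of libraries alone. The members were chosen by their place in the pathway and by their FPKM ratio between these libraries, which was known when they were proposed, so their ratios are a description.

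The hexosamine pathway diverts a small part of the glucose entering a cell, together with glutamine, acetyl-CoA and UTP, into the nucleotide sugar UDP-GlcNAc. UDP-GlcNAc feeds N-glycans, hyaluronan and GPI anchors, and it is the donor from which single GlcNAc sugars are attached to serines and threonines of nuclear and cytosolic proteins. That modification, O-GlcNAc, is added by 1 enzyme, OGT, and removed by 1 enzyme, encoded by MGEA5 (now named OGA). The pathway responds to nutrient supply and is often studied in colorectal and other cancers.

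From the steps between low values, the depth was 31801650 reads with the control siRNA and 39807025 with sihnRNPU (the knockdown library). The targeted gene HNRNPU stood at 239 FPKM (fragments scaled to gene length and library depth) with the control siRNA and 75.4 FPKM with sihnRNPU, 31.5% of the control level. Of 6 epithelial markers, 4 reached 1 FPKM. KRT18 was the most abundant of them at 88.1 and 81.6 FPKM and EPCAM stood at 13.8 and 13.7 FPKM, whereas CDH1, the gene of E-cadherin, was listed at 0 in both libraries and VIL1, the gene of villin, at no more than 0.00918 FPKM. All 4 blood markers were listed at 0, and no fibroblast marker exceeded 0.00848 FPKM.

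The start regions of the genes are shown first, because genes that were lower in the knockdown library and genes that were not can be set beside each other there. RefSeq windows (build GRCh38.p14) from 250 bases before to 50 bases after each annotated start were available for all 7 genes, with 2 starts for PGM3 and 3 for UAP1. They were searched on both strands for 5 words linked to stress-responsive transcription. CCACG, the core of the endoplasmic reticulum stress element, occurred in 7 of the 10 windows of these genes, against 38.1% of all 35116 windows of that length in the RefSeq table. The windows of the 7 genes were rich in G and C, at 57.7% to 79.3% with a median of 73.7%, where all windows had a median of 58.7%. Among the 17551 windows within that range of base content 52.9% held the word. Those windows spanned the whole range and were not matched to the median of 73.7%. Windows of a gene with several starts are not independent. In the lines below, capitals mark a single copy of CCACG or, where it lies on the opposite strand, CGTGG. Further copies within the GFPT2 and PGM3 stretches are in lower case. Each sequence reads 5′ to 3′ along the strand of its gene.
GFPT1, chr2:69387393-69387418, minus strand: acgagccactgCCACGtcgccgccgc
GFPT2, chr5:180353295-180353320, minus strand: gcccacggagcCCACGgagcccacgg
GNPNAT1, chr14:52791566-52791591, minus strand: cgttggcgctgCCACGtctgggccgc
PGM3, chr6:83193259-83193284, minus strand: gccacgcagggCCACGtctgcggttc
UAP1, chr1:162561590-162561615, plus strand: cagccactagtCGTGGcgagaggggc
OGT, chrX:71532877-71532902, plus strand: gagtgccctaaCCACGagtcgggttg

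GFPT1 and GFPT2 each held the word 3 times. In GFPT2 all 3 copies lay after the start, beginning 18, 27 and 36 bases into the transcript, and the stretch printed above shows the repeat of gcccacgga that carries them. In GFPT1 all 3 lay before the start, the printed one beginning at position -180 relative to it. The MGEA5 window did not hold it. None of the windows of the 7 genes held TGATGNAA (the C/EBP-ATF composite element, in 3.62% of all windows), TGACGTGG (an unfolded protein response element, 0.729%), the E-box CACGTG (7.26%) or the cyclic AMP response element TGACGTCA (1.85%). Only CCACG was searched for, not the rest of the endoplasmic reticulum stress element, so a match is not that whole element. CCACG is also contained in longer words such as TGCCACGT, which this search did not separate. A match is a string of letters in a window, not a bound site, and the word was present both in genes that were lower in the knockdown library and in genes that were not.

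GFPT2 had the largest difference of the 7. GFPT1 and GFPT2 encode the paralogous amidotransferases that start the pathway by moving an amino group from glutamine to fructose phosphate, its rate-limiting step. Gene positions here and below are on GRCh37, whereas the start windows above are on GRCh38.p14. GFPT2, on chromosome 5 at positions 179727698 to 179780341 of GRCh37 (minus strand), stood at 113 FPKM with the control siRNA and 40.8 FPKM with sihnRNPU. The log2 ratio of (FPKM + 1), knockdown over control, was -1.44. On 10804 and 4892 recovered reads, the exact 95% counting interval of the FPKM ratio was 0.350 to 0.374. By this ratio GFPT2 ranked 8th from the lowest among the 7958 genes that reached 5 FPKM in either library.

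GFPT1, on chromosome 2 at positions 69546901 to 69614386 (minus strand), stood at 25.8 FPKM with the control siRNA and 26.3 FPKM with sihnRNPU. Its log2 ratio was 0.03, and the counting interval of the FPKM ratio, 0.990 to 1.05, included 1. The levels of the paralogues lay closer together in the knockdown library: GFPT2 over GFPT1 went from 4.38 to 1.55. Relative to the control library that quotient was 0.354 (counting interval 0.338 to 0.371). Summed, the pair held 139 FPKM in the control library, of which GFPT2 made up 81.4%. In the knockdown library the sum was 67.1 FPKM, of which GFPT2 made up 60.8%. GFPT2 remained the more abundant transcript of the pair per length in both libraries. No 50-base word was shared between the longest coding transcripts of GFPT1 and GFPT2 in GENCODE 29, and none of the 3044 words of GFPT2 occurred in a transcript of any other gene.

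**Figure D1:**
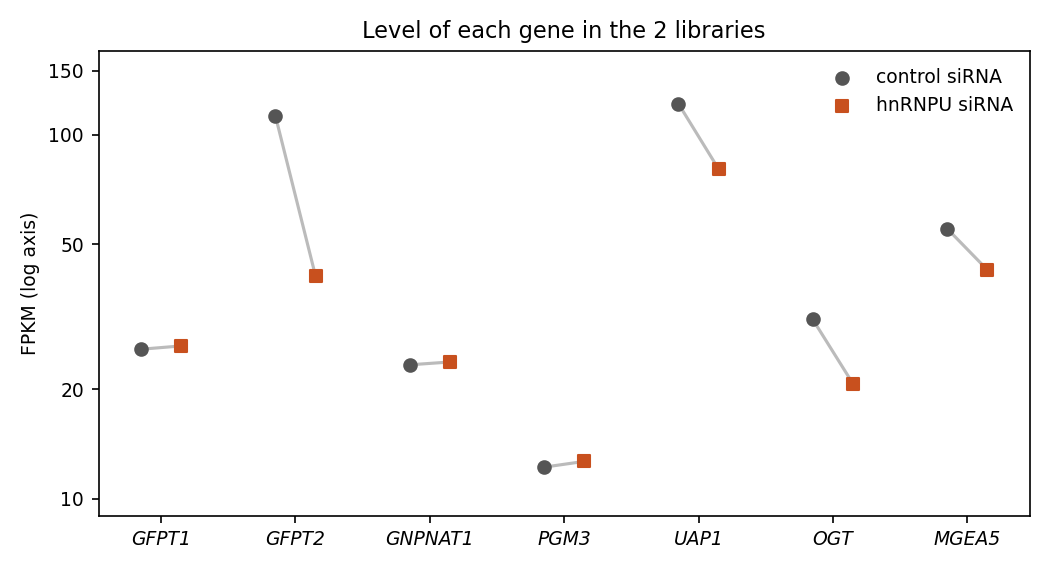
Level of the 7 genes in the control library (grey circles) and the hnRNPU siRNA library (orange squares), in FPKM on a log axis; each point is 1 library and grey lines join the values of a gene. GFPT2 drops from 113 to 40.8 FPKM, UAP1, OGT and MGEA5 are lower by smaller amounts, and GFPT1, GNPNAT1 and PGM3 lie at nearly the same level in both libraries.

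The middle steps of the pathway showed almost no difference. GNPNAT1, the acetyltransferase that joins acetyl-CoA to glucosamine phosphate (chromosome 14, positions 53241911 to 53258178, minus strand), stood at 23.4 FPKM with the control siRNA and 23.8 FPKM with sihnRNPU, a log2 ratio of 0.02. Its FPKM ratio had a counting interval of 0.970 to 1.07. The smallest whole numbers that gave both values implied a length far above its longest coding transcript, 3860 bases. Length and reads were therefore divided by a common whole factor, which left 3928 bases and 2917 and 3717.5 reads. The fraction comes from that assumed division. Whether reads were shared out between genes was not tested, so this value is less certain. In GENCODE 29, 32.7% of the 50-base words of GNPNAT1 lie on the opposite strand in the antisense transcript AL139317.3, and no source used here says if reads were counted by strand.

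PGM3, the mutase that moves the phosphate of GlcNAc phosphate (chromosome 6, positions 83874592 to 83903012, minus strand), stood at 12.2 FPKM with the control siRNA and 12.7 FPKM with sihnRNPU. Its log2 ratio of 0.05 was the highest of the 7, and the counting interval of the FPKM ratio was 0.983 to 1.09. PGM3 had the lowest level of the 7 in both libraries. DOPEY1, on the opposite strand, overlaps it and was listed at 1.99 and 2.11 FPKM, so a share of the PGM3 reads could belong to that gene. In GENCODE 29, 16.1% of the 50-base words of PGM3 occur on the opposite strand in DOPEY1 (there DOP1A).

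UAP1, the pyrophosphorylase that uses UTP to make UDP-GlcNAc in the last step (chromosome 1, positions 162531318 to 162569633, plus strand), stood at 122 FPKM with the control siRNA and 80.4 FPKM with sihnRNPU. The log2 ratio was -0.59, with a counting interval of the FPKM ratio of 0.643 to 0.679 on 11991 and 9917 reads. UAP1 was the most abundant of the 7 per length in both libraries. Its level was 9.95 times that of PGM3, the step before it, with the control siRNA and 6.34 times with sihnRNPU. The paralogue UAP1L1, from the list of salvage genes, stood at 9.99 and 8.73 FPKM, a log2 ratio of -0.18.

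Both genes of the O-GlcNAc cycle were lower in the knockdown library. OGT, the transferase that adds the sugar (chromosome X, positions 70766000 to 70795742, plus strand), stood at 31.1 FPKM with the control siRNA and 20.7 FPKM with sihnRNPU. Its log2 ratio was -0.57, with a counting interval of the FPKM ratio of 0.641 to 0.690. MGEA5, the hydrolase that removes it (chromosome 10, positions 103544202 to 103578466, minus strand), stood at 55.2 FPKM with the control siRNA and 42.5 FPKM with sihnRNPU. Its log2 ratio was -0.37, with a counting interval of 0.748 to 0.793. OGT was lower by more than MGEA5: the quotient OGT over MGEA5 was 0.563 with the control siRNA and 0.487 with sihnRNPU, 0.864 of the control value (counting interval 0.824 to 0.906). OGT and UAP1 had closely similar ratios, and the quotient UAP1 over OGT in the knockdown library was 0.993 of its control value (0.949 to 1.04). Transcripts of OGT and of MGEA5 with a retained intron are known in human cells, and the table's single value per gene does not separate them from the spliced mRNA.

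Among the 7 genes, 3 were lower by a log2 ratio of at least 0.5 (GFPT2, UAP1 and OGT), where 6.20% of the 7958 genes reaching 5 FPKM in either library were, and 1 was lower by at least 1 (GFPT2), where 0.754% of those genes were. No member was higher by 0.5 or more, against 6.13% of genes. Since the members were proposed with these ratios known, nothing is read from those counts, or from the median and sums of the 7 that follow. The median log2 ratio of the 7 was -0.37, and that of all 11567 genes with a mean of at least 1 FPKM was -0.00021. The summed level of the 7 was 382 FPKM with the control siRNA and 247 FPKM with sihnRNPU, 0.647 of control. Without GFPT2 the sums were 269 and 206 FPKM, 0.766 of control.

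**Figure D2:**
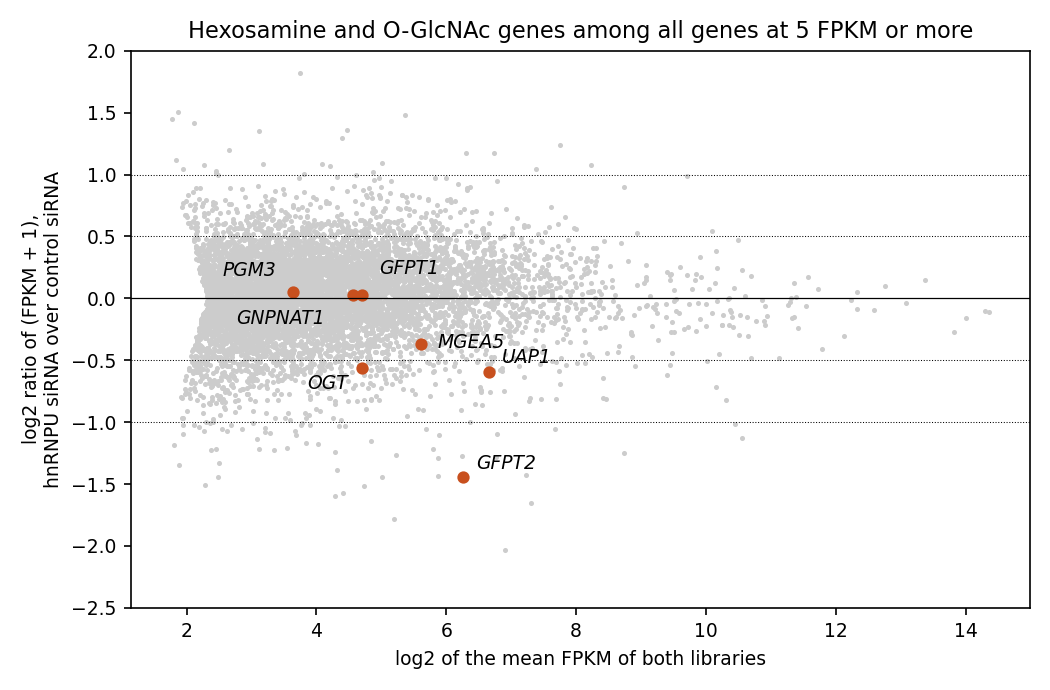
Log2 ratio of (FPKM + 1), hnRNPU siRNA over control siRNA, against the log2 of the mean FPKM of both libraries for the 7958 genes that reached 5 FPKM in either library (grey); the 7 genes are in orange and dotted lines mark log2 ratios of 0.5 and 1 in each direction. GFPT2 lies at the lower edge of the cloud at -1.44, UAP1 and OGT lie just below -0.5, and GFPT1, GNPNAT1 and PGM3 lie on its centre line.

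The order of the levels changed with the knockdown library. In the control library it ran UAP1, GFPT2, MGEA5, OGT, GFPT1, GNPNAT1 and PGM3, and no 2 neighbours in that order had overlapping 95% Poisson counting intervals. In the knockdown library MGEA5 stood above GFPT2, but their intervals overlapped, at 41.7 to 43.4 FPKM for MGEA5 and 39.7 to 42.0 FPKM for GFPT2. OGT stood above GFPT1 and GNPNAT1 in the control library and came after both in the knockdown library. The highest member exceeded the lowest by 9.95 times with the control siRNA and by 6.34 times with sihnRNPU. Among 19784 mRNA genes GFPT2 ranked 440 by control level and 1494 by knockdown level, UAP1 403 and 704, and MGEA5 1006 and 1431. Counting error alone enters these intervals, and the spread between cultures was not measured.

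Levels per length rest on the gene lengths the authors used. The length recovered for GFPT1, 8703 bases, equals that of its longest coding transcript in GENCODE 29. GFPT2 had 3011 bases against 3093, and UAP1 had 3099 against 2377, the largest departure of the 7 in proportion. The ratio of a gene between the libraries does not depend on that length.

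By distance in the plane of log2 (FPKM + 1) in the 2 libraries, genes near GFPT2 included the cyclin gene CCND1 at a distance of 0.40 (98.3 and 52.2 FPKM with the control siRNA and with sihnRNPU) and the tryptophanyl-tRNA synthetase gene WARS at 0.41. Nearest to PGM3 were MOCS2 (0.010), STXBP3 (0.016) and BIRC6 (0.025). With 2 libraries this measures only a like level and a like ratio.

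The neighbouring genes on the chromosomes did not share the ratio of GFPT2. MAPK9 lies 8627 bases from GFPT2, at lower coordinates. It stood at 22.9 FPKM with the control siRNA and 20.4 FPKM with sihnRNPU (log2 ratio -0.16). CNOT6, on the other side of GFPT2, stood at 13.8 and 14.5 FPKM (0.06). Beside UAP1, UHMK1 and HSD17B7 had log2 ratios of -0.13 and 0.01. Around OGT, the distant neighbours TAF1 (-0.38) and PIN4 (-0.42) were lower too. NPM3, a nucleoplasmin family gene 1032 bases from MGEA5, went the other way, at 51.2 FPKM with the control siRNA and 89.2 FPKM with sihnRNPU (0.79), while C10orf76, 26890 bases away on the other side, had a log2 ratio of -0.40. The 14 nearest mRNA genes averaging 1 FPKM or more had a median log2 ratio of -0.18. Of these 14, 1 was lower by at least 0.5 (APLF beside GFPT1) and 1 higher (NPM3), against 6.41% and 5.40% of all genes at that level. The neighbours were looked up after the values of the 7 genes were known.

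**Figure D3:**
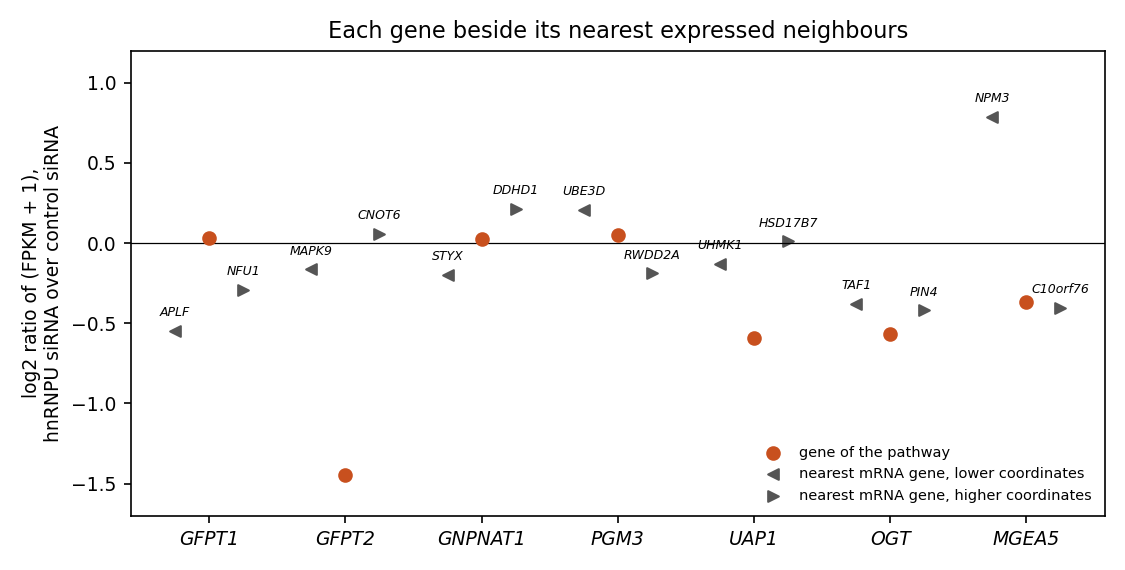
Log2 ratio of (FPKM + 1), hnRNPU siRNA over control siRNA, of each of the 7 genes (orange circles) and of the nearest mRNA gene on either side with a mean of at least 1 FPKM (grey triangles pointing to lower or higher coordinates). GFPT2 at -1.44 lies far below MAPK9 and CNOT6, whereas OGT at -0.57 lies close to TAF1 and PIN4.

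Genes that surround the pathway were summarised in 6 lists, whose 95 names were all matched to the table. Of all 11567 genes with a mean of at least 1 FPKM, 5787 had a ratio below 0, 6.41% were lower by at least 0.5 and 5.40% higher by at least 0.5. For the supply of glucose, glutamine, acetyl-CoA and UTP, 17 of 17 genes were measured, with 9 above 0, 8 below and a median log2 ratio of 0.04. None was lower by at least 0.5, and 1 was higher by at least 0.5. The pyrimidine synthesis gene UMPS, below that mark, was among the highest, at 8.50 FPKM with the control siRNA and 11.8 FPKM with sihnRNPU (0.43). The glutamine transporters SLC1A5 (-0.35) and SLC38A1 (-0.25) were the lowest.

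Salvage of amino sugars and the branch to sialic acid had 10 of 11 genes measured, with 5 above 0, 5 below and a median of 0.01. CMAS, which activates sialic acid, was the 1 gene higher by at least 0.5 (0.53, at 17.8 and 26.2 FPKM), followed by GNPDA1, a deaminase that returns glucosamine phosphate to glycolysis (0.30). GNE, which starts sialic acid synthesis from UDP-GlcNAc (-0.26), and the GlcNAc kinase gene NAGK (-0.23) were lowest. None was lower by 0.5.

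Transporters and transferases that use UDP-GlcNAc had 23 of 28 genes measured, with 8 above 0, 15 below and a median of -0.11, and none passed 0.5 in either direction. The N-glycan branching enzyme gene MGAT5 (0.34) and the hyaluronan synthase gene HAS2 (0.31) were highest. PIGQ, of the complex that starts GPI anchors (-0.44), and the nucleotide sugar transporter gene SLC35D1 (-0.33) were lowest. The oligosaccharyltransferase, which places N-glycans on proteins in the endoplasmic reticulum, had 11 of 12 genes measured, with 7 above 0, 4 below and a median of 0.14. Its catalytic subunit gene STT3B (0.24) and RPN2 (0.24) were highest, OST4 (-0.22) and TMEM258 (-0.12) were lowest, and none passed 0.5.

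Proteins that bind or recruit OGT had 16 of 17 genes measured, with 5 above 0, 11 below and a median of -0.09. TRAK2, a mitochondrial transport adaptor that binds OGT, was the 1 gene lower by at least 0.5, at 9.83 FPKM with the control siRNA and 5.35 FPKM with sihnRNPU (-0.77). The deubiquitinase gene BAP1 followed at -0.45, and KANSL2 (0.28) and PHF20 (0.22), of a chromatin complex that holds OGT, were highest. HCFC1, a transcriptional co-regulator that OGT both modifies and cleaves, stood at 9.42 and 10.6 FPKM (0.16) and was singled out for that role.

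The list of stress regulators around XBP1 and ATF4 had 9 of 10 genes measured, with 3 above 0, 6 below and a median of -0.20. In mammalian cells the spliced form of XBP1 and the factor ATF4 are both known to act on GFPT1. GFPT1 itself was within counting error of its control level, and whether either factor acted on it in these cells was not tested. XBP1 stood at 36.8 FPKM with the control siRNA and 20.5 FPKM with sihnRNPU (-0.81), and ATF4 at 276 and 132 FPKM (-1.06). ATF4 has near-identical pseudogene copies, so its value is less certain. DDIT3, the gene of the stress factor CHOP, was the highest of the list (0.84), followed by ATF6 (0.22). The table does not separate the spliced from the unspliced XBP1 mRNA.

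**Figure D4:**
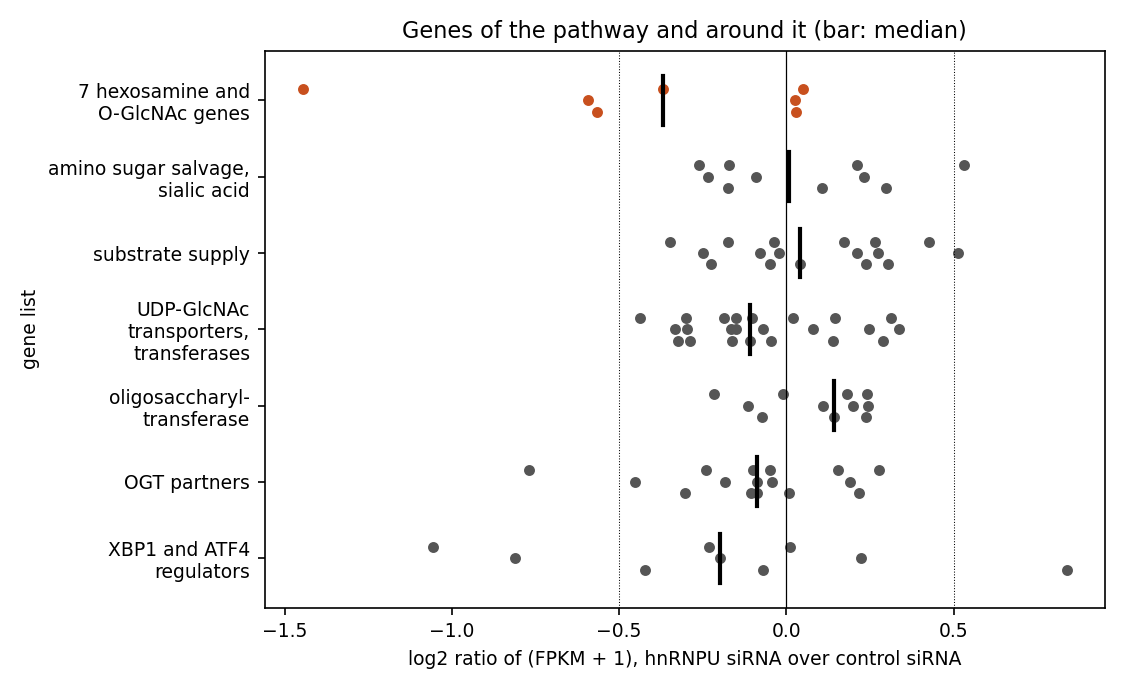
Log2 ratio of (FPKM + 1), hnRNPU siRNA over control siRNA, for the 7 genes (orange) and the measured genes of 6 surrounding lists (grey); each point is 1 gene, black bars are list medians and dotted lines mark 0.5 in each direction. The medians of the 6 lists lie between -0.20 and 0.14, and the 7 genes have a median of -0.37. The 7 were proposed with their ratios known, so nothing is read from that difference.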

How the data were processed

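RKO total RNA was isolated with Trizol, per the labels' protocols. The authors deposited 1 FPKM value per gene and library. The submitters' processing notes name Bowtie and GRCh37. No source used here gives the counting program, annotation, strand use or siRNA sequences. FPKM values corrected for depth and length by the authors can shift with a few very abundant transcripts.

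Ratios were log2 of (FPKM + 1), knockdown over control, which understates differences of low genes. No scaling was added. Depth was read from the steps of FPKM times length in short noncoding genes, and reads and length of the 7 genes from the ratio of whole numbers that gives each value, within a relative tolerance of 1e-11. A whole factor common to reads and length is lost. For GNPNAT1 the opposite was assumed, and length and reads were divided because the recovered length was far above its transcripts. Clopper-Pearson, conditional odds ratio and Poisson intervals (SciPy 1.17.1, Python 3.11.15) cover counting error only. The steps were tested on simulated libraries with whole read counts, so the division made for GNPNAT1 was not tested. The genes named were the 7, HNRNPU, the 2 highest and 2 lowest of each list, the 3 nearest to the lowest and to the highest member, and others marked in the text; some genes this rule names are not reported here. Members and lists were chosen with earlier results of these data known. Alternatives were other pseudocounts, rescalings and minimum levels.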

Additional observations from a re-analysis of the deposited data

How the results depend on the processing

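No paired analysis was possible because there was 1 library per group, and no replicate could be left out. Of 126 recomputed values, 120 stayed within their counting interval, within 1.5 times for a count, or within 0.1 for a list median, and none changed direction among the members whose counting interval excluded a ratio of 1. With a pseudocount of 5 FPKM, GFPT2 stood at -1.36 and OGT at -0.49, as an added constant shrinks ratios, and 2 members rather than 3 were then past -0.5. Rescaling shifted log2 FPKM by 0.03 (same FPKM sum), -0.04 (median ratio) or -0.04 (upper quartile), and log2 (FPKM + 1) of low genes by less. UAP1 then stood at -0.63 by the median ratio and -0.63 by the upper quartile, and MGEA5 at -0.41 by the upper quartile. The counts of members past 0.5 and past 1 stayed within 1.5 times under all 36 alternatives tried. The salvage list had a median of 0.16 among genes with a mean of at least 5 FPKM, where fewer genes enter. With no minimum its median was -0.09, of opposite sign to the main value but still within 0.1 of it. Rescaling could not move any list median by 0.1, because its shifts were smaller than that. The small ratios of GFPT1, GNPNAT1 and PGM3 are of the size of these shifts, so their sign is not settled.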

Other observations

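The genes below were picked after their values were seen. All 4 SLC35 nucleotide sugar transporters of the list had a ratio below 0, and others of that family were not looked up. The same held for 5787 of the 11567 genes with a mean of at least 1 FPKM. SLC35A3, which carries UDP-GlcNAc into the Golgi, stood at 5.98 FPKM with the control siRNA and 4.66 FPKM with sihnRNPU (log2 ratio -0.30), SLC35B4 at -0.30, SLC35D1 at -0.33 and SLC35D2 at -0.11. In the oligosaccharyltransferase, STT3A stood at 41.3 and 47.6 FPKM (0.20), RPN1 at 96.5 and 109 FPKM (0.18) and DDOST at 46.3 and 51.3 FPKM (0.14), KRTCAP2 had a log2 ratio of 0.24 and MAGT1 one of 0.11, and OSTC (-0.07) and DAD1 (-0.01) lay below 0. None of these genes passed a log2 ratio of 0.5, and with 1 library per group the values have no replicate check.

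Several genes of the lists were listed at 0 or near it in these cells. The hyaluronan synthase gene HAS1, the N-glycan GlcNAc transferase gene MGAT3 and the oligosaccharyltransferase gene TUSC3 were listed at 0 in both libraries. HAS2 stood at 8.46 and 10.7 FPKM, and MAGT1, the paralogue of TUSC3, at 14.5 and 15.8 FPKM. TET1, a DNA demethylase that binds OGT, was listed at 0.00656 FPKM with the control siRNA and 0 with sihnRNPU, and its relatives TET2 and TET3 stood at 3.87 and 3.72 FPKM with the control siRNA and at 2.94 and 3.40 FPKM with sihnRNPU.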
